A study of Homo sapiens with 4 samples.

Results

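The 10 genes described here encode the enzymes that make fatty acids from citrate, lengthen them and introduce double bonds into them, together with SREBF1, the gene of a transcription factor of this pathway. They were found by gene symbol among the 63241 genes of the expression table, each matching 1 row. The group was selected on membership of this pathway with the TPM of JMC45 and vehicle in these libraries already known, so the members' values in that comparison are given as a description, with no p-value. Where members are said to lie past the threshold of the fit over all genes, that is a count to set beside the share of all genes and no evidence about them. The RNA came from 22Rv1 cells, selected by its poly(A) tail. 22Rv1 is a human line of castration-resistant prostate cancer, kept in RPMI medium with penicillin, streptomycin and fetal bovine serum. Cells received 40 nM JMC45, a compound directed at the kinase CDK9 and taken here to be the CDK9 degrader that the series title names D45, or the DMSO vehicle, for 12 h, and each group had 2 libraries. It is a single cell line, and the labels do not say whether the libraries of a group came from separate cultures, so their spread may be technical.

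Cells build fatty acids in the cytosol. ACLY splits citrate into acetyl-CoA, ACACA carboxylates that to malonyl-CoA, and FASN joins these units into palmitate. At the endoplasmic reticulum ELOVL6 lengthens palmitate to stearate and SCD turns saturated chains into monounsaturated ones such as oleate, while ELOVL1 makes very long saturated chains and ELOVL5, FADS2 and FADS1 process polyunsaturated ones. The protein made from SREBF1 is held in the membrane of the endoplasmic reticulum until it is escorted by SCAP and cleaved, after which it activates most of these genes. In prostate cancer cells the pathway is known to be stimulated through the androgen receptor.

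Levels are given as TPM, the share of a library's transcripts that a gene holds after correction for its length, which allows genes to be compared with one another. The number of reads behind a TPM value cannot be recovered, so depth is unknown. Differences are on the log2(TPM + 1) scale, JMC45 minus vehicle, with the standard error (SE) of the limma fit, which understates the change of low genes. Of 14018 genes with a mean of at least 1 TPM, 80.7% were called lower and 4.25% higher in JMC45 at an adjusted p under 0.05, and the median gene changed by -1.10. Because TPM is a share of a library, such values cannot show whether there were fewer cells or less RNA per cell. Mitochondrially encoded genes held 20.1% to 20.4% of vehicle TPM and 26.6% to 29.3% of JMC45 TPM, and cytosolic ribosomal protein genes 18.6% to 20.3% and 28.5% to 30.1%. Because a share can drop when other transcripts take more of a library, changes of centred values are given beside those of TPM. Centred values are TPM divided by each library's median ratio to the geometric mean of the genes, which puts the median change at -0.01. On them, 35.5% of genes were called higher and 35.3% lower.

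SCD and FASN were the members that stood higher in JMC45 by the most, and SREBF1, ELOVL1 and ELOVL6 stood lower by the most. All 10 members passed the filter on low values. On TPM, 3 of them met the threshold for a higher level, where 4.25% of all tested genes did, and 6 met that for a lower level, where 80.7% did. Both JMC45 libraries lay above both vehicle libraries for 3 members, as for 6.28% of tested genes, and below for 6, as for 85.7%. On centred values 7 met the threshold for a higher level, beside 35.5% of all genes, and none for a lower level, beside 35.3%. Since the comparison was known when the genes were chosen, nothing is read from these counts. The median change of the members was -0.60 on TPM and 0.74 on centred values.

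**Figure D1:**
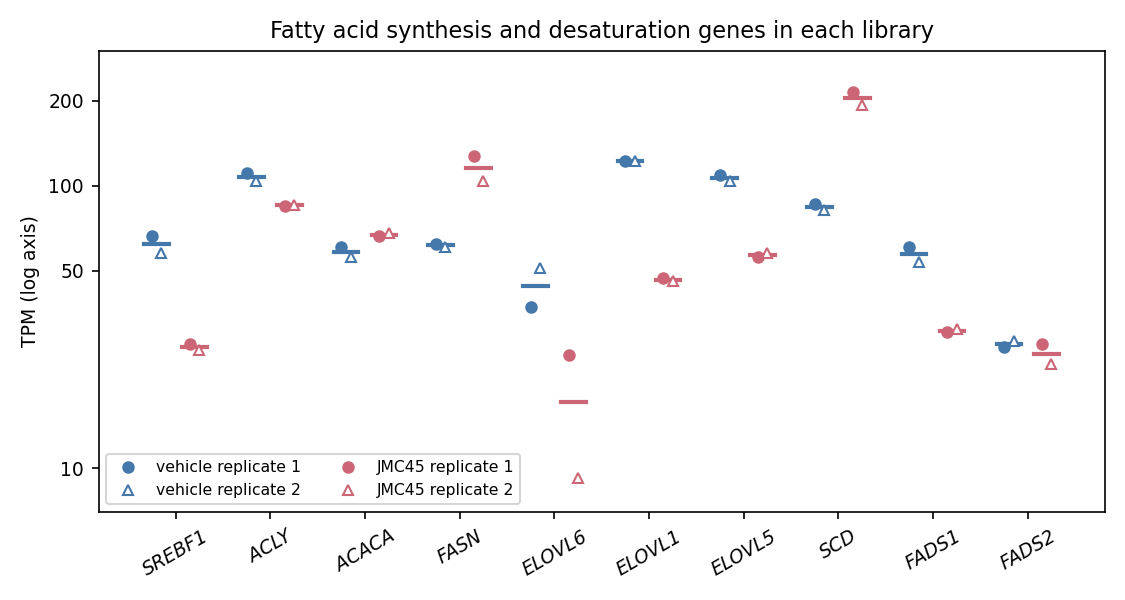
TPM of the 10 genes in each library on a log axis, with vehicle in blue and JMC45 in red; circles are replicate 1, triangles replicate 2 and bars the mean of the 2 libraries. SCD and FASN lie higher in both JMC45 libraries, ELOVL1 and SREBF1 lie lower in both, and the JMC45 libraries differ most from each other at ELOVL6 (25.12 and 9.23 TPM).

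The enzymes that assemble palmitate differed in direction on TPM. ACLY (ENSG00000131473) measured 111.22 and 103.52 TPM in vehicle and 84.97 and 85.32 TPM in JMC45, so both JMC45 libraries lay below both vehicle libraries. In GENCODE release 29, 3.0% of its exonic length overlaps exons of AC125257.2 on the other strand. Its log2 change was -0.33 (SE 0.07) on TPM and 1.02 on centred values. ACACA (ENSG00000278540) measured 60.47 and 55.92 TPM in vehicle and 66.29 and 68.02 TPM in JMC45. The groups did not overlap, but the difference was small, 0.20 (SE 0.07) on TPM, and it left the threshold without vehicle replicate 2 (0.15), JMC45 replicate 1 (0.22) or JMC45 replicate 2 (0.19) and became -0.25 when the summed TPM of mitochondrially encoded genes was made equal in all libraries, called the mitochondrial total equalized from here on. The ACACA change was 1.55 on centred values and 1.02 after quantile normalization. It was 0.70 with ribosomal protein and mitochondrially encoded genes left out. FASN (ENSG00000169710) measured 62.18 and 60.74 TPM in vehicle and 127.44 and 103.44 TPM in JMC45. Both treated libraries were well above both controls, and the mean went from 61.5 ± 1.02 to 115.4 ± 17.0 TPM (SD, n = 2), 1.88 times the vehicle level. FASN had a log2 change of 0.89 (SE 0.11), and 177 of the 14018 tested genes had a higher one.

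SCD (ENSG00000099194), the main desaturase of saturated fatty acids, had the largest upward difference of the 10. It measured 86.38 and 82.25 TPM in vehicle and 214.45 and 192.37 TPM in JMC45, with no overlap between the groups. The mean went from 84.3 ± 2.92 to 203.4 ± 15.6 TPM (SD, n = 2), 2.41 times the vehicle level, and the log2 change was 1.26 (SE 0.08), exceeded by 108 tested genes. SCD and FASN kept a positive change under all 14 alternative settings, from 0.80 to 2.61 for SCD and from 0.43 to 2.24 for FASN, and the lowest of each came with the mitochondrial total equalized. SCDP1, the processed pseudogene of SCD, was listed at 0 in all 4 libraries.

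The polyunsaturated desaturases FADS1 and FADS2, neighbours on chromosome 11, differed from SCD and from each other. FADS1 (ENSG00000149485) measured 60.64 and 53.55 TPM in vehicle and 30.41 and 31.02 TPM in JMC45, so both treated libraries were at about the same lower level. Its change was -0.87 (SE 0.09) on TPM, but 0.46 on centred values and 0.08 after quantile normalization. FADS2 (ENSG00000134824) measured 26.91 and 28.27 TPM in vehicle and 27.60 and 23.35 TPM in JMC45. The groups overlapped, and the change of -0.12 (SE 0.10) turned to 1.20 on centred values, 1.01 after quantile normalization and 0.37 with ribosomal protein and mitochondrially encoded genes left out. In GENCODE release 29 the exons of these neighbours overlap on opposite strands over 490 bases, 4.8% of the exonic length of FADS1 and 4.4% of that of FADS2. No source used here says whether the quantification used strand, so reads of that stretch could count for either gene.

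The 3 elongases had lower TPM in both JMC45 libraries than in either vehicle library. ELOVL1 (ENSG00000066322) measured 121.96 and 122.23 TPM in vehicle and 47.01 and 45.96 TPM in JMC45, the closest replicates of any member in the vehicle group. Its change was -1.37 (SE 0.06) on TPM and -0.03 on centred values. ELOVL5 (ENSG00000012660) measured 108.69 and 103.51 TPM in vehicle and 56.05 and 57.95 TPM in JMC45, with a change of -0.88 (SE 0.07) on TPM and 0.46 on centred values. ELOVL6 (ENSG00000170522), the elongase that feeds stearate to SCD, measured 37.17 and 51.01 TPM in vehicle and 25.12 and 9.23 TPM in JMC45. In proportion to its level, its JMC45 replicates disagreed more than those of any other member. The change of -1.45 (SE 0.42) was -0.77 without JMC45 replicate 2 and -2.12 without JMC45 replicate 1, and leaving out either vehicle library put it outside the threshold (-1.67 and -1.22).

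SREBF1 (ENSG00000072310), the transcription factor gene, measured 66.49 and 57.79 TPM in vehicle and 27.58 and 26.18 TPM in JMC45. Both treated libraries held less than either control library, with means of 62.1 ± 6.15 and 26.9 ± 0.990 TPM (SD, n = 2). The change of -1.18 (SE 0.09) lay close to that of the median gene, and it was 0.15 on centred values. On TPM its difference had the opposite sign to those of SCD and FASN. In GENCODE release 29, 6.9% of its exonic length overlaps exons of RAI1 on the other strand.

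The start regions of SCD, ELOVL1 and SREBF1 are shown because the first stood highest above the general shift and the other genes lay near it. The bases lie upstream of both the RefSeq and the GENCODE start of each gene, from RefSeq windows on GRCh38.p14 (no source used here names the build behind the TPM values). They are chr10:100346983-100347123 on the + strand for SCD, chr1:43368075-43368261 on the - strand for ELOVL1 and chr17:17837003-17837236 on the - strand for SREBF1. Capitals mark CCAAT, the letters read by the factor NF-Y, and GGGCGG, the GC box read by SP1, or their reverse complements.
SCD: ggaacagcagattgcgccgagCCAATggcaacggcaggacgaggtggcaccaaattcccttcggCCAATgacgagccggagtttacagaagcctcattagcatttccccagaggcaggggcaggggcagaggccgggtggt
ELOVL1: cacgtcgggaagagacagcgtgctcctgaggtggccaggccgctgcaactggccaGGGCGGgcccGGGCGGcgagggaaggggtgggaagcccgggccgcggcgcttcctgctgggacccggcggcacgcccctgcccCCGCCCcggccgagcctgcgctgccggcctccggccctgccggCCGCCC
SREBF1: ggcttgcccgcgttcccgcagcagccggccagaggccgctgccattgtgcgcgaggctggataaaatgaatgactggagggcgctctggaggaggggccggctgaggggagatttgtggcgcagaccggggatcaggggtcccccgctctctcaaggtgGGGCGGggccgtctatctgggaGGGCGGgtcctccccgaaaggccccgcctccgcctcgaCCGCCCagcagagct
The SCD stretch of 141 bases holds 2 CCAAT boxes, starting 229 and 186 bases before the RefSeq start, and its GC boxes, 33 and 11 bases before that start, lie outside the stretch. The 187 bases of ELOVL1 hold 4 GC boxes and end 64 bases before the RefSeq start. Its CCAAT box begins 65 bases before that start, so the end of the stretch cuts it and it is not marked. The 234 bases of SREBF1 hold 3 GC boxes. Over the full 250 bases before the start, searched on both strands, 5 of the 9 members with a RefSeq window held CCAAT (SCD, ELOVL1, ELOVL5, ACACA and ACLY), beside 32% of all 35116 windows. GGGCGG was in at least 1 window of 8 of the 9, SCD included and ELOVL5 not, beside 42.6% of all windows, and the E-box CACGTG in that of ELOVL5, beside 6.34%. ACACA, ACLY and FADS2 have more than 1 window, which raises their chance of a match. A match is a run of letters and not a measured binding site.

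**Figure D2:**
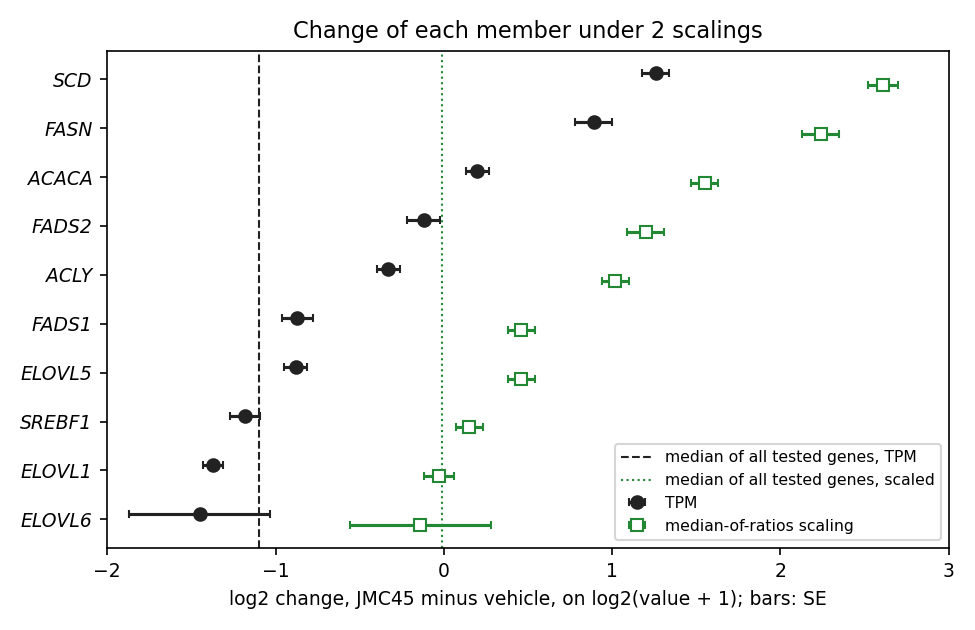
Log2 change of each gene, JMC45 minus vehicle, on log2(value + 1), with bars for the SE of the limma fit (2 libraries per group). Black circles are TPM and green squares centred values (median-of-ratios scaling), and the vertical lines mark the median of all tested genes under each (-1.10 and -0.01). SCD, FASN and, by less, ACACA are to the right of 0 under both, whereas ELOVL1, ELOVL6 and SREBF1 lie near the median gene under both. ELOVL5 and FADS1 lie near it on TPM and above it on centred values.

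Ratios of members within a library stay the same when each library is divided by a single factor. Every scaling used here except quantile normalization does this. The ratios differed between the groups for most pairs examined. There were 1.30 and 1.42 SCD transcripts for each SREBF1 transcript in the vehicle libraries, and 7.78 and 7.35 in the JMC45 libraries. The ratio of SCD to ELOVL1 was 0.708 and 0.673 in vehicle and 4.56 and 4.19 in JMC45. For SCD over FADS1 the values were 1.42 and 1.54 in vehicle and 7.05 and 6.20 in JMC45. FASN and ACACA, which act in succession, were near parity in vehicle (ratios of 1.03 and 1.09) and apart in JMC45 (1.92 and 1.52). The ratio of SCD to FASN moved less, from 1.39 and 1.35 to 1.68 and 1.86. ELOVL6 over ELOVL1 was 0.305 and 0.417 in vehicle and 0.534 and 0.201 in JMC45, so for this pair the groups overlapped. A ratio shows unequal change and not which of the genes changed.

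The summed level of the 10 genes was 742.1 and 718.8 TPM in vehicle and 706.9 and 642.8 TPM in JMC45, a ratio of group means of 0.92. The ratio was 2.37 on centred values and 0.67 with the mitochondrial total equalized, so its direction depends on the scaling. The shares of the sum that follow are the same under every scaling used here except quantile normalization. Within that sum SCD held 11.6% and 11.4% in vehicle and 30.3% and 29.9% in JMC45, and FASN held 8.38% and 8.45% and then 18.0% and 16.1%. SCD and FASN together thus went from 20.0% ± 0.0887 to 47.2% ± 1.66 of the sum (SD, n = 2). The shares of ELOVL1 (16.7% ± 0.404 and 6.90% ± 0.353) and SREBF1 (8.50% ± 0.650 and 3.99% ± 0.121) were lower in JMC45, and that of FADS2 was 3.78% ± 0.217 and 3.77% ± 0.192.

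**Figure D3:**
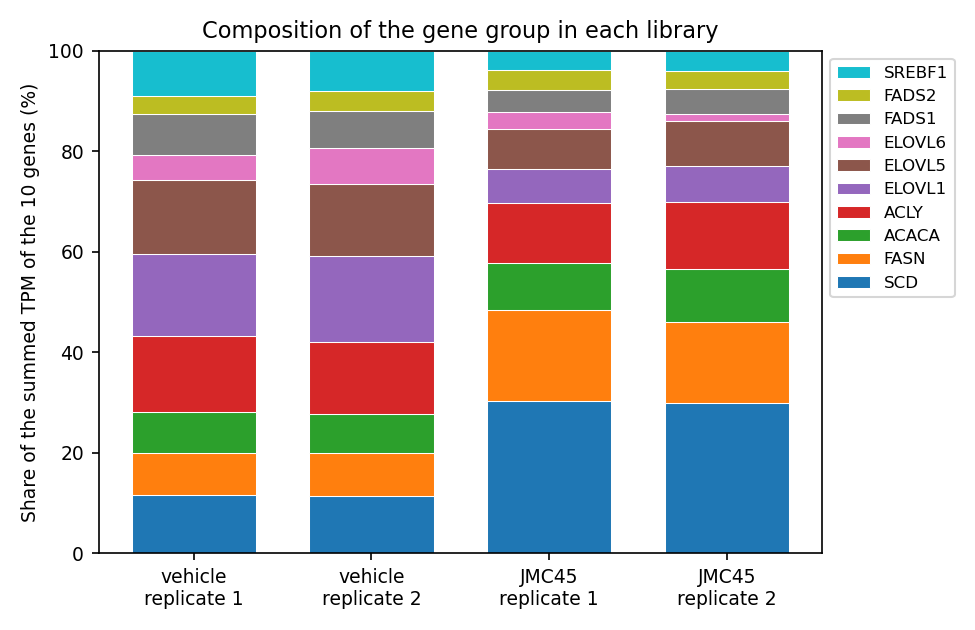
Share of the summed TPM of the 10 genes held by each gene in each of the 4 libraries, as stacked bars that add to 100%. SCD and FASN at the base of the bars hold 20.0% and 19.9% in the vehicle libraries and 48.4% and 46.0% in the JMC45 libraries.

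The order of the levels differed accordingly. In vehicle, ELOVL1 was the highest of the 10, followed by ACLY and ELOVL5, whose values overlapped, and then by SCD. SREBF1 and FASN came next with overlapping values, ACACA and FADS1 likewise, and ELOVL6 and FADS2 were the lowest. In JMC45, SCD was the highest, followed by FASN, ACLY, ACACA, ELOVL5, ELOVL1 and FADS1, with no overlap between neighbours. SREBF1, FADS2 and ELOVL6 were at the lower end, where the values of each overlapped those of the next. The 3 genes outside the lists whose 4 values, centred on their own mean, were nearest to the members' mean profile were PPP4R2P2 (Euclidean distance 0.0216), NDUFS3 (0.0259) and RACK1 (0.0274). The log2 changes of these genes were -0.36 to -0.39. With 4 libraries and members that differ in direction, that average profile came near only the change of ACLY (-0.33, SE 0.07) and describes the other members poorly.

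The members share little in gene structure. By GENCODE release 29, 4 of the 10 lie on chromosome 17 (ACLY, ACACA, FASN and SREBF1). SCD and FASN span 17.7 and 20.0 kb, below the median of 32.8 kb for the 11570 tested protein-coding genes, but ELOVL1, whose TPM was lower in JMC45, is shorter still at 4.7 kb, and ACACA spans 321.8 kb. The longest transcript of SCD has 6 exons and that of FASN 43, against a median of 8. The longest transcripts of FASN (8.56 kb) and SCD (5.36 kb) are above the median of 3.66 kb, as is that of ELOVL6 (6.45 kb).

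Other genes of the same families were scarcer than the members, apart from SREBF2. Of the 6 tested, 4 fell and 1 rose on TPM, beside 80.7% and 4.25% of all tested genes. On centred values 1 fell and 4 rose, beside 35.3% and 35.5% of all genes. ELOVL4, an elongase of very long polyunsaturated chains, fell from 10.0 ± 0.262 to 1.36 ± 0.0990 TPM (log2 change -2.23, limma adjusted p = 2.2e-05) and was the only one that also fell on centred values (-1.19). ACACB, the mitochondrial acetyl-CoA carboxylase, fell from 4.38 ± 0.120 to 1.19 ± 0.318 TPM. ELOVL2 fell by 0.79 and FADS3 by 0.58 on TPM but had changes of 0.34 and 0.60 on centred values and of 0.55 and 0.79 after quantile normalization. The FADS3 call was lost without vehicle replicate 1 (-0.49), vehicle replicate 2 (-0.66) or JMC45 replicate 2 (-0.38). ELOVL7 measured 9.29 ± 0.898 and 7.36 ± 0.148 TPM and did not pass (limma adjusted p = 0.0529), though without vehicle replicate 2 it did (-0.39). SREBF2, whose product chiefly drives cholesterol synthesis, rose from 60.3 ± 0.940 to 69.7 ± 2.15 TPM (log2 change 0.21, adjusted p = 0.0255), a call that did not hold when vehicle replicate 1 (0.19), vehicle replicate 2 (0.22) or JMC45 replicate 2 (0.17) was left out. With the mitochondrial total equalized it had -0.25. SREBF2 transcripts were 0.897 and 1.06 per SREBF1 transcript in vehicle and 2.47 and 2.72 in JMC45. SCD5, ELOVL3 and FADS6 were under 0.3 TPM in every library and were not tested.

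Genes for SREBP processing and lipogenic transcription lay furthest below the general shift of the lists examined. Of 21 tested, 18 fell and 1 rose on TPM, beside 80.7% and 4.25% of all tested genes. The median was -1.90, beside -1.10 for all genes. On centred values 14 fell and 3 rose, beside 35.3% and 35.5% of all genes, with a median of -0.81. The oxysterol receptor gene NR1H2, whose product activates SREBF1, fell from 38.0 ± 1.88 to 5.04 ± 1.39 TPM (log2 change -2.71, limma adjusted p = 2.72e-05). RNF139, a ubiquitin ligase of the endoplasmic reticulum, fell by 2.47 and NFYB, an NF-Y subunit, by 2.37 on the log2 scale, and both also fell on centred values (-1.38 and -1.12). The genes that follow were singled out for their role after their values were seen. NFYA and NFYC, the other NF-Y subunits, fell by 2.02 and 1.90, and SP1 by 2.33, and the 3 also fell on centred values (-0.80, -0.65 and -1.09). INSIG1, which retains SCAP in the endoplasmic reticulum, measured 57.59 and 52.76 TPM in vehicle and 20.34 and 15.97 TPM in JMC45 (-1.56 on TPM, and -0.24 and not called on centred values). INSIG2 fell by 1.88 and the protease gene MBTPS2 by 1.97, both also on centred values (-0.93 and -0.81). The INSIG2 level was low, at 6.35 and 6.45 TPM in vehicle and 0.71 and 1.38 TPM in JMC45. SCAP (-1.22) and the protease gene MBTPS1 (-1.39) had 0.06 and -0.09 on centred values. MLXIPL, the gene of the carbohydrate-responsive factor ChREBP, was at 0.70 and 1.08 TPM in vehicle and 2.22 and 2.20 TPM in JMC45. Its log2 change was 0.77, and it is counted above among the genes that rose. Its vehicle mean was under the filter, so it was tested only because of its level in JMC45. Its call is therefore no evidence of a rise. THRSP was not tested.

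**Figure D4:**
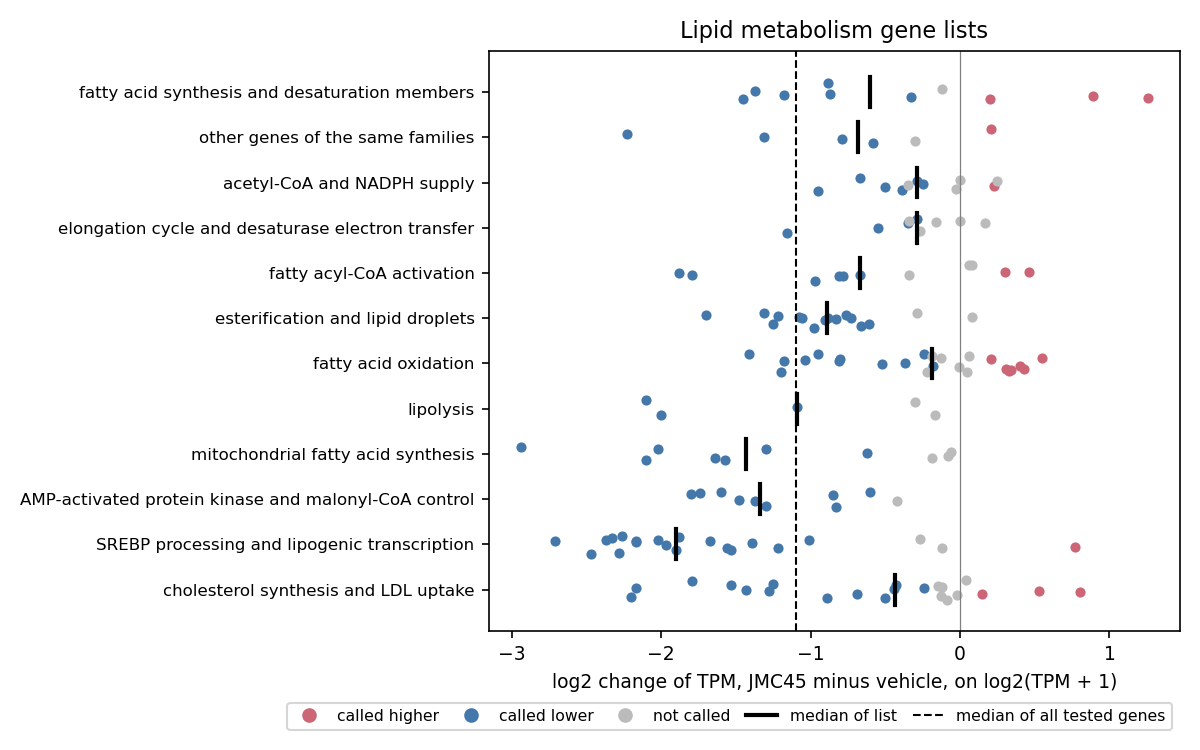
Log2 change of TPM, JMC45 minus vehicle, of each tested gene in 12 lists of lipid metabolism; red points were called higher, blue lower and grey not called at an adjusted p under 0.05, black bars are list medians and the dashed line is the median of all tested genes (-1.10). The list for SREBP processing and lipogenic transcription is centred at -1.90, and the members range from -1.45 to 1.26.

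Genes that supply acetyl-CoA and NADPH had a median change of -0.29 on TPM, beside -1.10 for all genes. Of 11 tested, 6 fell and 1 rose, beside 80.7% and 4.25% of all tested genes. All 11 were called higher on centred values, beside 35.5% of all genes. TKT, of the pentose phosphate pathway, fell from 259.6 ± 3.17 to 134.3 ± 10.9 TPM (-0.95, and 0.41 on centred values). The NADPH-producing dehydrogenase PGD fell by 0.67 and the mitochondrial citrate carrier SLC25A1 by 0.50 on TPM, with 0.68 and 0.84 on centred values.

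Of the 9 tested genes for the other steps of the elongation cycle and for electron transfer to desaturases, 4 fell on TPM. None rose at an adjusted p under 0.05, where of all tested genes 80.7% fell and 4.25% rose. On centred values 8 of the 9 rose, beside 35.5% of all genes. CYB5B, an outer mitochondrial membrane cytochrome b5, fell from 135.8 ± 2.09 to 60.2 ± 2.19 TPM (log2 change -1.16), with 0.19 on centred values. CYB5R1 fell by 0.55 and the dehydratase gene HACD2 by 0.35 on TPM, with 0.78 and 0.99 on centred values and 0.42 and 0.53 after quantile normalization. The HACD2 call was lost without vehicle replicate 1 (-0.28).

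For the genes that use the fatty acids made, the counts stand beside 80.7% of all genes lower and 4.25% higher on TPM. On centred values the shares were 35.3% and 35.5%. Of 11 tested genes of fatty acyl-CoA activation, 6 fell and 2 rose, and on centred values 2 fell and 7 rose. ACSL3, an acyl-CoA synthetase of lipid droplets, fell from 42.0 ± 3.67 to 11.4 ± 0.219 TPM (-1.79) and SLC27A3 from 61.5 ± 0.820 to 16.0 ± 1.33 TPM (-1.88), both also on centred values (-0.49 and -0.56). SLC27A4 fell by 0.97 on TPM, with 0.27 on centred values and 0.36 after quantile normalization. DBI, the acyl-CoA binding protein, rose from 242.6 ± 4.71 to 335.6 ± 30.3 TPM (0.46, limma adjusted p = 0.00158), a change that was 0.00 with the mitochondrial total equalized. SLC27A5 rose by 0.30 (adjusted p = 0.0112), was not called without vehicle replicate 1 (0.26) or JMC45 replicate 1 (0.24), and had -0.16 with that total held equal.

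In esterification and lipid droplets, 14 of 16 tested genes fell on TPM and none rose, with a median of -0.89. On centred values 1 fell and 8 rose. The shares of all genes were 80.7% lower and 4.25% higher on TPM, and 35.3% and 35.5% on centred values. The gene that fell under both was GPAT4, an acyltransferase of triglyceride synthesis (34.1 ± 5.70 and 9.78 ± 1.32 TPM, log2 change -1.70). The droplet coat genes PLIN3 and PLIN2 fell by 1.31 and 1.25 on TPM, and had -0.10 and -0.42 on centred values and 0.05 and -0.18 after quantile normalization, none of these called. PLIN2 was under 1 TPM in both JMC45 libraries and, like LIPE, was tested only because of its level in vehicle. Of 5 lipolysis genes 3 fell on TPM, and on centred values 2 fell and 2 rose, beside the same shares of all genes. ABHD5, the activator of the triglyceride lipase, fell by 2.10 and the hormone-sensitive lipase LIPE by 2.00 (-0.92 and -1.20 on centred values), and PNPLA2, the triglyceride lipase itself, fell by 1.09 on TPM with 0.18 on centred values and 0.23 after quantile normalization.

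Of 24 tested genes of fatty acid oxidation, 7 rose and 11 fell on TPM, where 4.25% of all genes were called higher and 80.7% lower. Their median was -0.18, and on centred values 19 rose and none fell, beside 35.5% and 35.3% of all genes. The 7 were enzymes of the mitochondrial matrix and inner membrane, but genes for other enzymes of these compartments were among the 11 that fell. ACADVL, the very-long-chain acyl-CoA dehydrogenase, rose from 211.3 ± 4.04 to 311.2 ± 23.0 TPM (log2 change 0.55, limma adjusted p = 0.000472). ETFA, an electron transfer flavoprotein subunit, rose by 0.43, ACADS by 0.40, HADHA and HADHB, the subunits of the trifunctional protein, by 0.34 and 0.31, ECHS1 by 0.33 and DECR1 by 0.21. With the mitochondrial total equalized, ACADVL had 0.09 and was not called, and the other 6 had between -0.25 and -0.03. DECR1 was no longer called when vehicle replicate 1 (0.19) or JMC45 replicate 2 (0.18) was left out. CPT1A, which admits fatty acids to mitochondria, fell from 22.4 ± 0.983 to 7.80 ± 0.219 TPM (-1.41). CPT1C, a member of the same family, fell by 1.18. On centred values the CPT1A and CPT1C changes were -0.15 and 0.03, and after quantile normalization -0.09 and 0.19.

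Mitochondria have a fatty acid synthesis pathway of their own, which makes the precursor of lipoic acid. Of its 10 genes 7 fell on TPM and none rose, with a median of -1.44, beside 80.7% and 4.25% of all tested genes. On centred values 4 fell and 4 rose, beside 35.3% and 35.5% of all genes. OXSM, its condensing enzyme, fell from 31.4 ± 3.37 to 3.22 ± 0.368 TPM (log2 change -2.94, limma adjusted p = 1.18e-05), and the lipoyl transferase genes LIPT1 and LIPT2 fell by 2.10 and 2.02, to 1 TPM or less in both JMC45 libraries. These transferase genes were tested only because of their level in vehicle. FASN, the cytosolic counterpart, stood higher in those libraries. Of 10 genes of AMP-activated protein kinase and its regulators, the kinase that inactivates acetyl-CoA carboxylase, 9 fell on TPM, around a median of -1.34. On centred values 3 fell and 3 rose, and these counts stand beside the same shares of all genes. The kinase subunit genes PRKAB1, PRKAA1 and PRKAG2 fell (log2 changes of -1.80, -1.74 and -1.60) and also did so on centred values (-0.62, -0.41 and -0.36). Other subunit genes of the same kinase were among the 3 that rose on centred values.

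Cholesterol synthesis and LDL uptake, the pathway most like this one in its control by SREBPs, also held genes moving both ways. Of 22 tested genes 13 fell and 3 rose on TPM, beside 80.7% and 4.25% of all tested genes. Their median was -0.44, beside -0.60 for the fatty acid genes. On centred values 3 fell and 15 rose, beside 35.3% and 35.5% of all genes. The difference between the lists was not tested. LSS, which closes the sterol rings, rose from 23.0 ± 0.523 to 40.9 ± 0.587 TPM (0.80, limma adjusted p = 0.000119) and MVD from 43.2 ± 1.63 to 63.0 ± 9.70 TPM (0.53), changes smaller than that of SCD (1.26). The MVD call was lost without vehicle replicate 1 (0.49) and with the mitochondrial total equalized (0.07). SQLE, the squalene oxidase, fell from 44.6 ± 0.544 to 8.92 ± 0.679 TPM (-2.20), MVK by 2.17 and HSD17B7 by 1.79, and all 3 also fell on centred values (-0.91, -0.99 and -0.54).

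The cells' identity was checked against marker genes. All 8 markers of prostate luminal epithelium were between 9.89 and 379.09 TPM, and their sum was 1099.7 and 1127.7 TPM in vehicle and 427.1 and 431.1 TPM in JMC45. Among 6 adipocyte markers, ADIPOQ and PLIN1 were listed at 0 in all 4 libraries and the sum was 1.02 to 1.12 TPM in vehicle and 0.42 to 0.59 TPM in JMC45. The sums were 1.38 to 1.71 and 0.43 to 0.48 TPM for 5 leukocyte markers, with CD3E at 0 throughout, and 3.16 to 3.56 and 1.53 to 3.00 TPM for 6 fibroblast and endothelial markers, with CDH5 at 0. Of 5 hepatocyte markers APOB and SERPINA1 were listed at 0 in all libraries, but ALB was at 47.54 and 52.35 TPM in vehicle and 34.98 and 37.55 TPM in JMC45, making up most of the list's sum of 49.2 to 53.6 and 37.2 to 40.0 TPM. The part of these markers in the results was not tested.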

How the data were processed

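RNA of 4 libraries was sequenced from a stranded poly(A) kit, per the labels' protocols. The deposited values are TPM for each Ensembl gene and library, per the file headers. Among tools, fastp, HISAT2 and StringTie are named by the submitters' processing notes. Versions, roles, build and annotation were not given in the sources used here. The columns named as controls were assigned to the vehicle libraries by name and number. 50 lines without values were left out, and 62666 of 63241 genes matched a symbol.

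Tests used log2(TPM + 1) on 14018 genes whose mean TPM reached 1, in limma 3.58.1 (R 4.3.3) with an intensity trend, two-sided and without a replicate block, with Benjamini-Hochberg adjustment over all genes tested and a threshold of 0.05. Only genes past it are said to have risen or fallen. The list counts of genes that fell include some not named here that passed the filter only because of their level in vehicle. The members and lists were chosen with earlier results of these data known. All members and family genes were named, and in each other list up to 3 genes with the largest called change and all that rose; 8 genes of SREBP control were added for their role after their values were seen, and 3 genes that the rule would name are not reported here. Alternatives were a pseudocount of 0.1, no filter, a mean TPM of at least 5, 5 scalings, no trend, the replicate block and each library left out. Gene structure came from GENCODE release 29. Summaries were made with pandas 2.3.3 and numpy 2.4.6 and figures with matplotlib 3.10.9, in Python 3.11.15.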

Additional observations from a re-analysis of the deposited data

How the results depend on the processing

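The scaling of the libraries decided the direction of many genes, because most genes had lower TPM in JMC45. Higher calls numbered 4982 and lower calls 4944 on centred values (median-of-ratios scaling), and 4716 and 4603 after quantile normalization. Holding the mitochondrially encoded total equal called 181 higher, and leaving out ribosomal protein and mitochondrially encoded genes 1645. Of the members, 0 were called lower on centred values (1, ELOVL6, without JMC45 replicate 1, 0 to 1 over the libraries left out) and 1 after quantile normalization (ELOVL1). Of the 123 other pathway genes tested, 82 were called lower and 12 higher on TPM, beside 80.7% and 4.25% of all genes. These calls numbered 27 and 69 on centred values, and 28 and 66 after quantile normalization. Higher calls among these pathway genes numbered 1 when the total of mitochondrially encoded genes was held equal, and 33 without ribosomal protein and mitochondrially encoded genes. The members' median was 0.74 on centred values, 0.19 after quantile normalization, -0.46 without mitochondrially encoded genes, -1.05 with their total held equal and -0.11 without these and ribosomal protein genes. The ratio of their summed level was 2.37, 1.02, 0.67 and 1.30 under the first and the last 3 of these.

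Changes with the opposite sign on centred values were ACLY 1.02, SREBF1 0.15, ELOVL5 0.46, FADS1 0.46, FADS2 1.20, ELOVL2 0.34, ELOVL7 0.92, FADS3 0.60, TKT 0.41, PGD 0.68, SLC25A1 0.84, CYB5B 0.19, CYB5R1 0.78, HACD2 0.99, SLC27A4 0.27, CPT1C 0.03, PNPLA2 0.18, SCAP 0.06, PPP4R2P2 0.52, NDUFS3 0.99 and RACK1 0.99. After quantile normalization they were ACLY 0.30, FADS1 0.08, FADS2 1.01, ELOVL2 0.55, ELOVL7 1.05, FADS3 0.79, SLC25A1 0.36, CYB5R1 0.42, HACD2 0.53, SLC27A4 0.36, PLIN3 0.05, CPT1C 0.19, PNPLA2 0.23, SCAP 0.06, PPP4R2P2 0.75 and NDUFS3 0.14. When the mitochondrially encoded total was held equal they were ACACA -0.25, SREBF2 -0.25, SLC27A5 -0.16, ETFA -0.03, ACADS -0.03, HADHA -0.12, ECHS1 -0.13, HADHB -0.14 and DECR1 -0.25, and without ribosomal protein and mitochondrially encoded genes ACLY 0.16, FADS2 0.37, ELOVL7 0.15, HACD2 0.14, NDUFS3 0.13 and RACK1 0.12. Without mitochondrially encoded genes FADS2 had 0.03. The scaling itself sets these shifts.

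Leaving out each library gave 425 to 530 genes called higher, 10513 to 11083 lower, 5 to 6 members called lower and a members' median of -0.65 to -0.53. The labels state no pairing of samples by replicate number. Deviations of same-numbered libraries from their group means correlated at -0.047. With 2 libraries per group these deviations mirror each other, so the value cannot show whether samples were paired. With the replicate number as a block, 6 members were called lower, beside 11380 of all 14018 tested genes. Of the 68 named genes, the call of ACACA was lost with that block. ACACA was also not called without the filter, without the trend, or without vehicle replicate 2, JMC45 replicate 1 or JMC45 replicate 2 (0.15 to 0.22). ELOVL6 was not called without the filter, without either vehicle library or without ribosomal protein and mitochondrially encoded genes. Depth is unknown and sets no limit that can be given here.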
